A study of Mus musculus with 16 samples.

Results

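The transcription factors T, Mixl1, Eomes, Gsc, Mesp1, Tbx6, Sox17, Foxa2, Gata4 and Gata6 direct the formation of mesoderm and endoderm in the early mouse embryo. These 10 genes were chosen by name as regulators of these lineages, and each was found once in both gene tables of the series, among 55471 genes with DNA methylation columns and 43984 genes with histone columns. They were described here in undifferentiated mouse induced pluripotent stem cells (iPSCs), a stage at which such genes are silent or expressed at low levels.

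Pluripotent cells leave for mesoderm or endoderm through the primitive streak, under Nodal, Wnt, BMP and FGF signals. T, Mixl1, Eomes and Gsc are early streak genes, Mesp1 and Tbx6 act in nascent mesoderm, and Sox17, Foxa2, Gata4 and Gata6 are best known as endoderm regulators, although Gata4 and Gata6 also act in heart mesoderm. In pluripotent cells the starts of many such genes lie in CpG-rich DNA that stays poor in DNA methylation and carries H3K4me3, often together with the repressive mark H3K27me3. H3K36me3 is laid down over gene bodies during transcription elongation.

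The study asked whether iPSCs keep epigenetic marks of the cell they were made from, and compared lines from kidney proximal tubule cells (PTC11 and PTC12) with lines from tail tip fibroblasts (TTF1 and TTF4). All donor mice carried SLC34a1-GCE and tdTomato together with rtTAROSA (neo-in) and OKMS-250, so that both origins held the same doxycycline-inducible Oct4, Klf4, c-Myc and Sox2. Tubule cells were marked by a tamoxifen diet, through Cre expressed from the SLC34a1 promoter of mature proximal tubule cells, and sorted for both fluorescent reporters, whereas the fibroblasts received Cre from an episomal plasmid in culture. Doxycycline was later withdrawn from both, and each line was a doxycycline-independent clone grown with LIF. The samples came from 2 mice by the design text, but the labels do not say which line came from which mouse. A limma p-value here is therefore set against the spread between clonal lines of the same origin, not between mice. In limma that spread was shared over genes of similar level, so the SE of a gene need not follow its own lines.

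The series held 16 libraries in 4 assays, with 1 library per line in H3K4me3, H3K36me3 and CpG methylation, while both PTC libraries of H3K27me3 carried the name of line 11. Histone values were RPKM, the read number of a peak scaled to peak length and library size, after subtraction of input, and methylation values were the fraction of methylated CpGs around the transcription start site (TSS). The files gave no read counts or coverage, so depth was unknown. The lines differed as wholes in ways that crossed the origins. The mean methylated fraction over all genes ran from 0.372 in PTC11 and 0.379 in TTF1 to 0.482 in PTC12 and 0.649 in TTF4. Median H3K36me3 was 1.60 RPKM in PTC11 and 1.18 RPKM in TTF1 against 3.88 RPKM in PTC12 and 4.01 RPKM in TTF4. Fewer genes had an H3K4me3 value in PTC11 (15114) and TTF4 (15368) than in PTC12 (19990) and TTF1 (19448). Of 12 pluripotency genes, 11 had H3K4me3 in PTC11, PTC12 and TTF1 and 9 in TTF4. The corresponding counts were 2, 4, 3 and 1 of 10 proximal tubule markers and 3, 7, 7 and 5 of 10 fibroblast markers in PTC11, PTC12, TTF1 and TTF4.

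The 10 genes differed widely in the DNA around their starts. The starts of 5 of them are shown, because Gsc, T and Eomes had low methylated fractions around the start in every line, while Tbx6 and Mesp1 had higher ones in at least 1 line and fewer CpGs. Each sequence is the RefSeq promoter window on GRCm38.p6, from 250 bases before to 50 bases after the start, written 5′ to 3′ on the strand of the gene, with every CpG in capitals. The windows are Gsc at chr12:104473187-104473486 (minus strand), T at chr17:8434173-8434472 (plus strand), Eomes at chr9:118477939-118478238 (plus strand), Tbx6 at chr7:126781233-126781532 (plus strand) and Mesp1 at chr7:79793541-79793840 (minus strand).
Gsc: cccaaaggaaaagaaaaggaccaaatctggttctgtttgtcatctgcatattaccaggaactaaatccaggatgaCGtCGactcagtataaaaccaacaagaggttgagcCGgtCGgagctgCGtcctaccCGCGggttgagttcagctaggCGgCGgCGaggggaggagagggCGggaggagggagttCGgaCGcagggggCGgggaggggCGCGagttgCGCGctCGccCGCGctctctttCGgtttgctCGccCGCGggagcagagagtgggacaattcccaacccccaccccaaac
T: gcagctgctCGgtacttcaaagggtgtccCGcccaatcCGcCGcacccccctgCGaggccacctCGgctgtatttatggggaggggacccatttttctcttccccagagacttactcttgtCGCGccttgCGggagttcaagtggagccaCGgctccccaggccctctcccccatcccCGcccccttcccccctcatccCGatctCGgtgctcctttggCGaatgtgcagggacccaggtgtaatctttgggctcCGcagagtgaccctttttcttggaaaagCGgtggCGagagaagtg
Eomes: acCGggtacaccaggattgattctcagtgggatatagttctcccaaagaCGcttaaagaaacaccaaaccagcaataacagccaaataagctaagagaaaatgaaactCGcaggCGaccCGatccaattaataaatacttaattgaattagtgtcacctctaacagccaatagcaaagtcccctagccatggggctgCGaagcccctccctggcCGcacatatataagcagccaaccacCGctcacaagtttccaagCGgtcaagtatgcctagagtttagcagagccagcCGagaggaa
Tbx6: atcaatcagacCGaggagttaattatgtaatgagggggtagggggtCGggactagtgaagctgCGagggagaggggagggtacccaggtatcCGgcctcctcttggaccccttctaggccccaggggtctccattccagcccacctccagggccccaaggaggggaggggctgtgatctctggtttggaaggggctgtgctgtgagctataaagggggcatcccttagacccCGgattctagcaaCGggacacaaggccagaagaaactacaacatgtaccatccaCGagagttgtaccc
Mesp1: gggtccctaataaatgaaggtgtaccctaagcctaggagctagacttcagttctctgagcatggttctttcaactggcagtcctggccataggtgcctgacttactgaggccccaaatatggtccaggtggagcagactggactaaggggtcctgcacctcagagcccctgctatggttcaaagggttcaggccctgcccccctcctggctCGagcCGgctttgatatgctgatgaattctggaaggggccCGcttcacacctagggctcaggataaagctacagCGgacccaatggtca
The Gsc window held 25 CpGs, the T window 17, the Eomes window 10, the Tbx6 window 7 and the Mesp1 window 4, against a median of 7 over 32851 promoters of the same length. RefSeq sequences were matched for 6 of the 10 genes, the sixth being Foxa2 with 12 CpGs. The RefSeq start lay 198 bases from the start in the deposited tables for Mesp1, 94 bases for Gsc and 23 bases for Eomes, and at the same base for T, Tbx6 and Foxa2. Both strands were searched for 3 motifs, none of which contains another. The motif AGGTGTGA, bound by T-box factors, was present once in the Mesp1 window and in 1.28% of all promoters. The core promoter motif TATAAA was present once each in the Gsc window and the Tbx6 window, with 13.6% of all promoters holding it. The motif AGATAA, recognised by GATA factors, was in none of the 6 windows, with 11.2% of all promoters holding it.

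Over the 1000 bases to each side of the TSS, which is the span of the methylation values, the 10 genes held between 27 CpGs at Gata4 and 148 at Gsc. The median over 55348 starts was 25 CpGs. Among the streak genes, T (mm10 chr17:8434423-8442496, plus strand) had 125 CpGs, Mixl1 (chr1:180693043-180697034, minus strand) 103, Eomes (chr9:118478212-118486132, plus strand) 127 and Gsc (chr12:104471209-104473330, minus strand) 148. The mesoderm genes Mesp1 (chr7:79792241-79793788, minus strand) and Tbx6 (chr7:126781483-126785560, plus strand) had 94 and 47 CpGs. Of the endoderm genes, Sox17 (chr1:4490931-4497354, minus strand) had 74, Foxa2 (chr2:148042877-148046969, minus strand) 94, Gata4 (chr14:63198922-63271692, minus strand) 27 and Gata6 92. All 10 are annotated by GENCODE as protein coding, and each start lies in an annotated exon. The start used for methylation was that of 1 of 6 annotated transcripts at Gata4 and Gata6, 1 of 8 at Sox17 and 1 of 4 at Foxa2. The CpG numbers and values at such genes need not describe their other starts.

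Methylation fell with CpG number among these genes. The mean fraction over the 4 lines was lowest at Gsc (0.0236) and Eomes (0.0238) and highest at Gata4 (0.616), which had the fewest CpGs. Spearman's rho between mean fraction and CpG number was -0.78 across the 10 genes and -0.64 across 50657 genes, a description over genes that share the same 4 libraries. Mean fractions under 0.1 were found at 3 of the 10 genes and at 11.9% of all genes. Foxa2 and Mesp1 showed that CpG number alone did not order the mean fractions, since each had 94 CpGs and their means were 0.119 and 0.334. Mesp1 lay above Foxa2 in PTC11, PTC12 and, at 0.749, most of all in TTF4. In TTF1 it lay below Foxa2, at 0.0729 against 0.124.

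**Figure D1:**
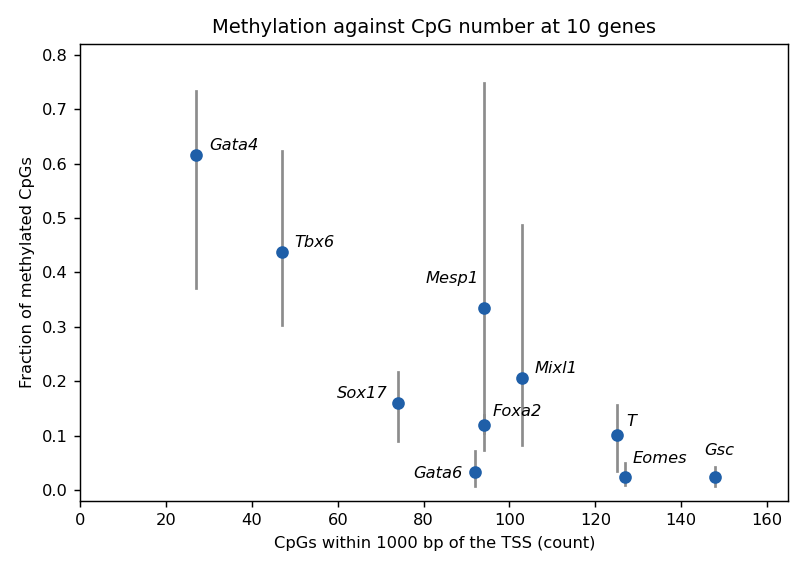
Mean fraction of methylated CpGs over the 4 lines (points) against the number of CpGs within 1000 bp of the TSS, for the 10 genes. Grey bars run from the lowest to the highest line, and the longest bar is that of Mesp1, from 0.0729 to 0.749.

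Eomes and Gsc had little methylation in any line. Eomes, a T-box factor needed for streak exit and definitive endoderm, had a methylated fraction of 0.0171 in PTC11 and 0.0490 in PTC12, against 0.0199 in TTF1 and 0.00922 in TTF4. Gsc, a homeobox gene of the organizer, had 0.00679 in PTC11 and 0.0417 in PTC12, against 0.0165 in TTF1 and 0.0294 in TTF4. At both genes PTC12 was highest, and the PTC and TTF lines overlapped. The antisense gene Gm10000 starts 1 base from Gsc in the methylation table and had the same value in 3 of the 4 lines, so these are not separate measurements.

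T, the founding T-box gene and a marker of streak and notochord, had a fraction of 0.155 in PTC11 and 0.118 in PTC12, against 0.0957 in TTF1 and 0.0352 in TTF4. Both TTF lines lay below both PTC lines in the deposited fractions. TTF4 was the lowest line at T although its mean over all genes was the highest, and its fraction differed from the mean of the other 3 lines by -0.0878, whereas the median gene differed by 0.231. After the mean of each line was subtracted, as the study did before averaging, the PTC and TTF lines overlapped at T.

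Mixl1, a homeobox gene of the streak, had a fraction of 0.118 in PTC11, 0.0834 in PTC12 and 0.134 in TTF1 but 0.488 in TTF4. The TTF lines were the highest pair, by a narrow margin in TTF1 and a wide one in TTF4. The TTF4 fraction was 0.376 above the mean of the other lines, beside a median excess of 0.231 over all genes. A smaller excess was found at 78.1% of genes. Within TTF4, Mixl1 lay at 0.633 of the library median and above 28.5% of genes. The PTC lines averaged 0.101 ± 0.0243 (SD, n = 2 lines) and the TTF lines 0.311 ± 0.250 (SD, n = 2 lines). Mixl1 was the 1 gene of the 10 at which the origins did not overlap after centring, whereas 27.8% of all genes showed this. In the deposited fractions they did not overlap at 2 of the 10 genes, T and Mixl1, beside 23.9% of all genes. The exact two-sided permutation test over the lines gave p = 0.33 for Mixl1, the smallest it can give with 2 lines against 2.

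Mesp1, a basic helix-loop-helix factor at the head of cardiac mesoderm, varied most between lines. Its fraction was 0.262 in PTC11 and 0.253 in PTC12, against 0.0729 in TTF1 and 0.749 in TTF4. The PTC lines were nearly equal and lay between the TTF lines, which were the lowest and the highest. The range over the lines was 0.676, wider than at 90.8% of all genes, whose median range was 0.378. The Mesp1 fraction in TTF4 was 0.553 above the mean of the other lines, and 94.7% of genes had a smaller excess there. Tbx6, a T-box factor of presomitic mesoderm, was methylated in every line, with 0.391 in PTC11 and 0.431 in PTC12, against 0.303 in TTF1 and 0.624 in TTF4. Its TTF lines likewise lay on either side of the PTC lines.

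Of the endoderm genes, Sox17, Foxa2 and Gata6 had low methylated fractions in every line and Gata4 had higher ones. Sox17, an HMG-box factor of definitive endoderm, had a fraction of 0.0906 in PTC11 and 0.216 in PTC12, against 0.162 in TTF1 and 0.168 in TTF4. Foxa2, a forkhead factor of endoderm and node, stayed between 0.104 in PTC11 and 0.137 in PTC12, with 0.124 in TTF1 and 0.112 in TTF4. Its range of 0.0334 was the narrowest of the 10 genes, and 2.01% of all genes had a narrower one. Gata6, a zinc-finger factor of primitive and definitive endoderm, was also low, with 0.00690 in PTC11 and 0.0724 in PTC12, against 0.0147 in TTF1 and 0.0359 in TTF4. The related factor Gata4, at the start used here, had the highest mean fraction of the 10. It had 0.372 in PTC11 and 0.718 in PTC12, against 0.641 in TTF1 and 0.733 in TTF4. PTC11 was the lowest line in fraction. As ratios to the library median, PTC11 (0.966) and TTF4 (0.951) lay slightly below it, and PTC12 (1.33) and TTF1 (1.71) above it.

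**Figure D2:**
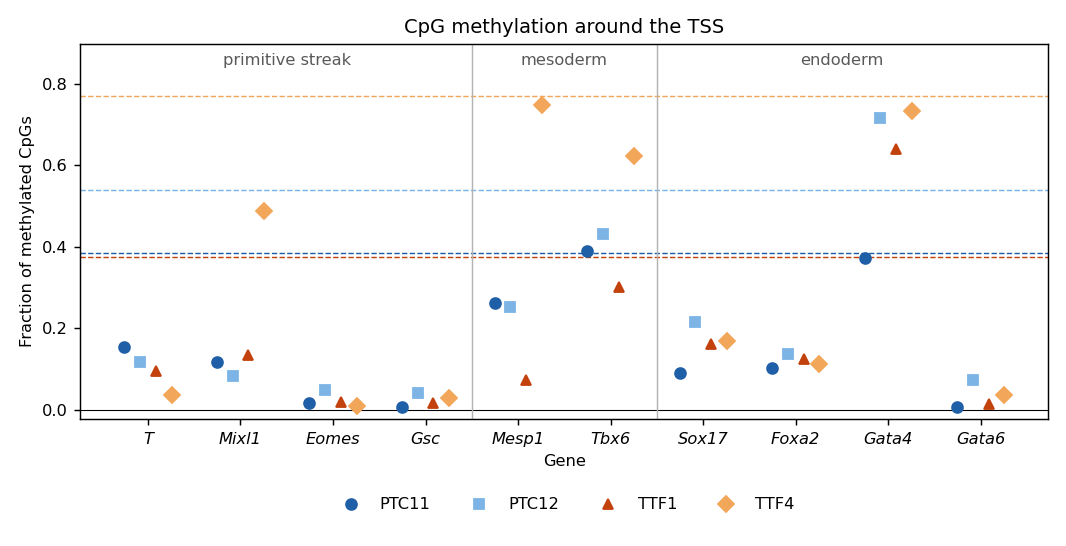
Fraction of methylated CpGs around the TSS of each gene (horizontal axis, grouped by role) in PTC11, PTC12, TTF1 and TTF4. Dashed lines give the median over all genes in each line, which is highest in TTF4. TTF4 stands far above the other lines at Mixl1 (0.488) and Mesp1 (0.749), and below them at T (0.0352).

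TTF4 was the highest line at 4 of the 10 genes, Mixl1, Mesp1, Tbx6 and Gata4, against 75.4% of 50657 genes. At the other genes its fraction minus the mean of the other lines lay between -0.0878 and 0.0120. The median fraction over the 10 genes was 0.111 in PTC11 and 0.128 in PTC12, against 0.110 in TTF1 and 0.140 in TTF4, so it moved much less between lines than the median of all genes, which ran from 0.374 in TTF1 to 0.770 in TTF4. This contrast between lines was not tested.

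Tested with limma on the centred fraction, none of the 10 genes passed an adjusted p of 0.05, while 2 of all 50657 genes, or 0.00395%, did so. None of the 10 had an unadjusted p under 0.05, beside 2401 of the 50657 genes. TTF minus PTC was positive at 3 genes (Mixl1, Mesp1 and Gata4) and negative at 7, with a median of -0.0820 beside -0.0100 over all genes. The largest differences were at T, -0.158 (SE 0.131, 95% interval -0.422 to 0.105), and at Mixl1, 0.123 (SE 0.133, 95% interval -0.143 to 0.389). At Mesp1 the difference was 0.0665 (SE 0.146, 95% interval -0.225 to 0.358). Each interval held 0, and over the 10 genes the intervals reached from -0.422 at T to 0.389 at Mixl1. Subtracting 1 number per line also pushes down the centred value of an unmethylated gene in a highly methylated line, and without centring the median difference of the 10 genes was 0.00511.

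H3K4me3, the mark of gene starts, was averaged by the authors over peaks from 2 kb before to 3 kb after the TSS. It had a value in all 4 lines at 6 of the 10 genes, T, Mixl1, Eomes, Gsc, Sox17 and Gata6, whereas 31.2% of all listed genes had one in all lines and 50.5% in none. A gene with no retained peak has no value, which is not a measured 0. PTC12 had a value at all 10 genes, TTF1 and TTF4 at 8 each and PTC11 at 7.

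The streak genes carried the mark in every line. T had 3.50 RPKM of H3K4me3 in PTC11 and 4.77 in PTC12, against 3.69 in TTF1 and 3.06 in TTF4. Eomes had 3.07 RPKM in PTC11 and 5.21 in PTC12, against 4.90 in TTF1 and 3.53 in TTF4. Gsc varied least of the streak genes, with 3.77 RPKM in PTC11 and 4.57 in PTC12, against 4.32 in TTF1 and 3.92 in TTF4. At all 3 genes PTC12 was the highest line, and PTC and TTF lines overlapped. Mixl1 spanned more, with 1.87 RPKM in PTC11 and 5.30 in PTC12, against 6.05 in TTF1 and 3.42 in TTF4. In PTC11 only 3.38% of genes with a value lay below Mixl1, whereas 64.7% did so in PTC12, 37.9% in TTF4 and 69.8% in TTF1. The line in which Mixl1 was lowest in H3K4me3, PTC11, was not the line in which it was most methylated, TTF4.

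The mesoderm genes each had no H3K4me3 value in at least 1 line. Mesp1 had 2.24 RPKM in PTC11, 4.56 in PTC12 and 4.56 in TTF1 and no value in TTF4, the line in which its methylated fraction was 0.749. Tbx6 had 3.36 RPKM in PTC12, 2.99 in TTF4 and no value in PTC11 or TTF1. In the deposited fractions TTF4 had the highest Tbx6 methylation and TTF1 the lowest, so a value for H3K4me3 did not go with a low fraction. Within the libraries the order differed. Tbx6 methylation lay above 40.1% of genes in PTC12 and 34.8% in TTF4, against 50.8% in PTC11 and 42.4% in TTF1. By this rank Tbx6 was lower in the lines with an H3K4me3 value, which was not tested.

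Among the endoderm genes, Sox17 had 2.58 RPKM in PTC11 and 3.84 in PTC12, against 3.87 in TTF1 and 3.12 in TTF4. The histone and methylation tables place the Sox17 start at different bases, 4496413 and 4497354 on chromosome 1, and their starts of Gata6 and Gsc differ too, so for these 3 genes the assays were not centred on the same base. Gata6 had 3.57 RPKM in PTC11 and 4.46 in PTC12, against 4.37 in TTF1 and 3.37 in TTF4. The antisense gene AC130654.1 starts 57 bases from Gata6 in the histone table and had the same H3K4me3 values in all 4 lines, so the peak cannot be assigned to either gene. Foxa2 had 4.41 RPKM in PTC12, 4.64 in TTF1, 2.62 in TTF4 and no value in PTC11. Gata4, the gene with the highest mean methylation, had a value in PTC12 alone at the start used here, 2.22 RPKM.

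**Figure D3:**
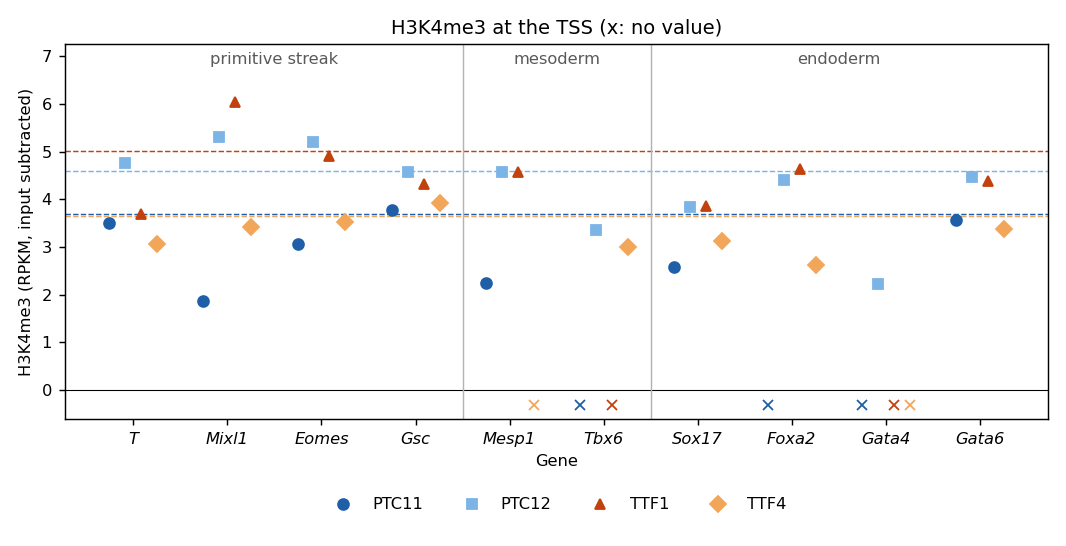
H3K4me3 in RPKM at the TSS of each gene (horizontal axis, grouped by role) in the 4 lines, with crosses under the axis where a line has no value and dashed lines at the median over all genes of each line. PTC11 and TTF4 sit low at most genes, as do their medians over all genes, and Mesp1 has no value in TTF4.

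Of the 6 genes that could be tested, none passed an adjusted p of 0.05 in limma on log2(RPKM + 1), beside 66 of 13709 genes (0.481%). None of the 6 had an unadjusted p under 0.05, beside 134 of the 13709 genes. The PTC and TTF lines overlapped at all 6, and 8.21% of tested genes did not overlap. TTF minus PTC was largest at Mixl1, 0.39 (SE 0.37, 95% interval -0.33 to 1.11), where the PTC lines had 3.58 ± 2.42 RPKM and the TTF lines 4.73 ± 1.85 RPKM (SD, n = 2 lines each). The SE was shared over genes of similar level. Gsc had a slightly larger SE of 0.39 although its lines were closer, with SDs of 0.57 RPKM in PTC and 0.29 RPKM in TTF. The TTF minus PTC difference was lowest at T, at -0.22 (SE 0.35, 95% interval -0.91 to 0.46). The other 4 lay between -0.04 at Gata6 and 0.10 at Sox17, on this log2 scale, which understates changes of low values. The median of the 6 genes was 0.01 and that of all genes 0.04. With missing values set to 0, the 4 genes left out gave TTF minus PTC of 0.96 at Foxa2, -0.06 at Tbx6, -0.84 at Gata4 and -0.85 at Mesp1, each with an adjusted p of 1.

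Mesp1 had no H3K4me3 value in TTF4, the line in which its methylated fraction was highest. Within TTF4 that fraction was close to the middle of all genes, at 0.972 of the library median and above 46.5% of genes. Over all genes and within each line, methylation was lower where H3K4me3 had a value. The median fraction was 0.0747 with and 0.461 without H3K4me3 in PTC11, 0.142 and 0.651 in PTC12, 0.0972 and 0.492 in TTF1, and 0.223 and 0.837 in TTF4. As a comparison chosen after the Mesp1 values were seen, 755 genes had H3K4me3 in PTC11, PTC12 and TTF1 and none in TTF4. Their median methylated fraction in TTF4 was 0.528 above the mean of the other lines, and 44.4% of them reached or passed the excess of Mesp1. Among 11181 genes with H3K4me3 in all lines the median excess was 0.111, and 1.15% reached that of Mesp1. The part played by the high methylation of TTF4 as a whole in the Mesp1 value was not tested.

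H3K36me3 over the gene body had a value in all 4 lines at 8 of the 10 genes, and at 38.7% of all listed genes. The pattern was the same at most genes: low in PTC11 and TTF1 and high in PTC12 and TTF4, as for the medians of the whole libraries. Among the streak genes, Mixl1 had 2.05 RPKM in PTC11 and 5.19 in PTC12, against 1.01 in TTF1 and 4.93 in TTF4. Eomes had 1.68 RPKM in PTC11 and 5.62 in PTC12, against 1.39 in TTF1 and 5.66 in TTF4, so that its 2 high lines, 1 of each origin, were nearly equal. Gsc had 2.53 RPKM in PTC11 and 6.46 in PTC12, against 1.23 in TTF1 and 5.05 in TTF4. T had 2.06 RPKM in PTC11 and 4.29 in PTC12, against 0.859 in TTF1 and no value in TTF4. T was thus without an H3K36me3 value in the line in which it was least methylated.

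In the mesoderm pair, Mesp1 had 1.62 RPKM of H3K36me3 in PTC11 and 6.74 in PTC12, against 2.18 in TTF1 and 7.60 in TTF4. As ratios to the median of each library, these values were 1.01 in PTC11, 1.74 in PTC12 and, for the TTF lines, 1.85 in TTF1 and 1.90 in TTF4. Mesp1 thus stood at or above the library median in every line. It stood highest in TTF1 and TTF4, where the ratios were nearly equal and it lay above 96.7% and 96.3% of genes. TTF4 was the line where it had no H3K4me3 value. Tbx6 had 1.73 RPKM in PTC11 and 2.33 in PTC12, against 1.47 in TTF1 and no value in TTF4. Tbx6 was the lowest of the 10 genes in PTC12.

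The endoderm genes followed the libraries. Sox17 had 2.30 RPKM in PTC11 and 4.32 in PTC12, against 1.83 in TTF1 and 4.24 in TTF4, and Foxa2 had 2.41, 4.69, 1.46 and 3.77 RPKM in the same order. Gata4 had 1.68 RPKM in PTC11 and 5.53 in PTC12, against 1.15 in TTF1 and 6.01 in TTF4, and Gata6 had 1.70, 4.69, 1.10 and 4.24 RPKM. At all 4 genes the lines of each origin were far apart and the origins overlapped.

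**Figure D4:**
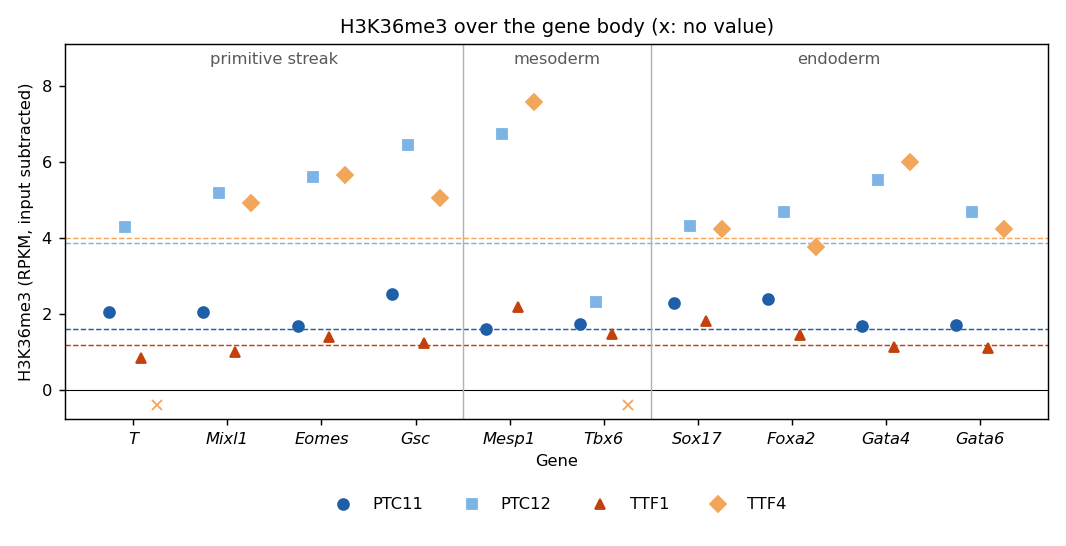
H3K36me3 in RPKM over the body of each gene (horizontal axis, grouped by role) in the 4 lines, with crosses under the axis where a line has no value and dashed lines at the median over all genes of each line. PTC12 and TTF4 lie above PTC11 and TTF1 at every gene with 4 values.

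None of the 8 genes tested passed an adjusted p of 0.05 in limma, beside 19 of 17039 genes (0.112%). None of the 8 had an unadjusted p under 0.05, beside 116 of the 17039 genes. The origins overlapped at all 8, and they did not overlap at 3.5% of tested genes. On the log2(RPKM + 1) scale, TTF minus PTC ran from -0.48 at Gsc (SE 1.22) to 0.22 at Mesp1 (SE 1.33), with 7 genes negative and 1 positive. The median was -0.18, close to the -0.14 of all genes, of which 25.3% were positive. Standard errors were between 1.05 and 1.33, so that differences of more than 1 log2 unit in either direction lay inside every 95% interval. With missing values set to 0, T gave -1.56 and Tbx6 -0.94, each with an adjusted p of 1.

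**Figure D5:**
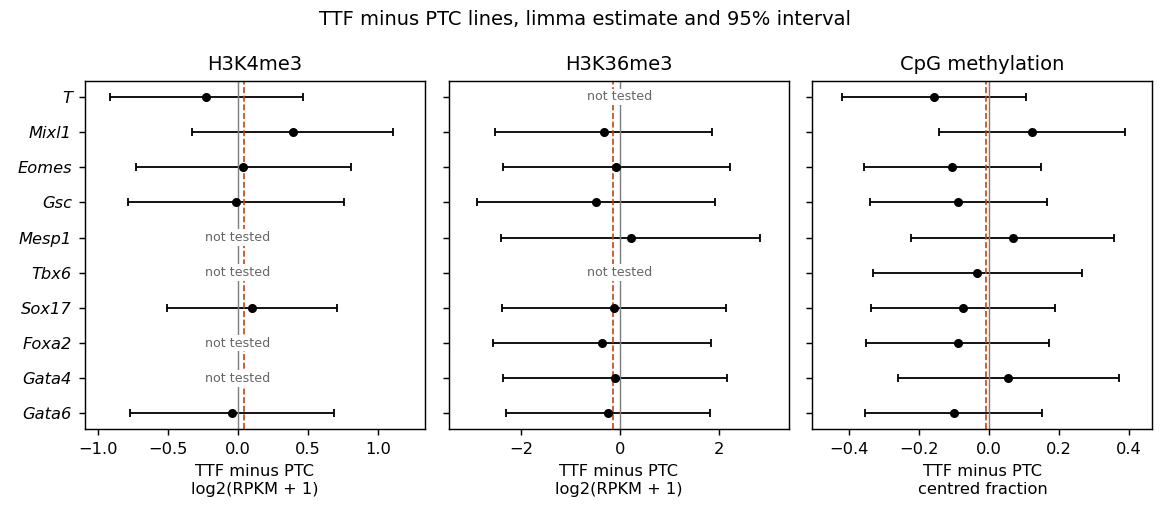
TTF minus PTC with 95% intervals from limma for each gene, in log2(RPKM + 1) for H3K4me3 and H3K36me3 and in centred fraction for CpG methylation. Dashed lines give the median difference of all genes; every interval crosses 0.

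H3K27me3 had no value at any of the 10 genes in any of its 4 libraries. The libraries held a value at 69 and 144 genes in those named PTC11, at 52 genes in TTF1 and at 11 genes in TTF4, of 43984 listed. The mark was therefore not assessable at these genes, and no value in these libraries is not a sign that the mark was absent. Over the lists described below, Lhx1, a mesoderm regulator, was the 1 gene with a value, 1.65 RPKM in a library named PTC11.

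Genes around these regulators in the same pathways were followed in lists, with no gene called in any list and any assay by limma (smallest adjusted p 1.00). Of 34 genes of the Nodal, Wnt, BMP and FGF signals, 30 had H3K4me3 in PTC11 and 32 in PTC12, against 32 in TTF1 and 30 in TTF4. Their median methylated fraction was 0.0783 in PTC11 and 0.0996 in PTC12, against 0.0588 in TTF1 and 0.137 in TTF4. Gdf3, a Nodal-related ligand, had fractions of 0.144 in PTC11 and 0.129 in PTC12, against 0 in TTF1 and 0.887 in TTF4, the same split of the TTF lines as at Mesp1. Lefty1, an inhibitor of Nodal, was instead highest in PTC12, at 0.326, with 0.0264 in PTC11, 0.0567 in TTF1 and 0.0453 in TTF4.

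Of 22 genes of later mesoderm, 14 had H3K4me3 in PTC11 and 22 in PTC12, against 19 in TTF1 and 16 in TTF4, and their median methylated fraction moved from 0.124 in PTC11 to 0.152 in TTF4. Mesp2, the paralogue of Mesp1, had fractions of 0.321 in PTC11 and 0.443 in PTC12, against 0.486 in TTF1 and 0.742 in TTF4. It shared the high value of TTF4 with Mesp1 but not the low value of TTF1. The later endoderm genes were more methylated, with a median over 17 genes of 0.150 in PTC11 and 0.262 in PTC12, against 0.155 in TTF1 and 0.449 in TTF4. Sox7, an endoderm and endothelial relative of Sox17, had 0.104 in PTC11 and 0.202 in PTC12, against 0.113 in TTF1 and 0.578 in TTF4, whereas Sox17 itself stayed at 0.168 in TTF4.

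The median methylated fraction of 10 neural lineage genes lay between 0.0513 in PTC11 and 0.0795 in PTC12, with 0.0593 in TTF4. For 12 pluripotency genes it was 0.0207 in PTC11 and 0.105 in PTC12, against 0.101 in TTF1 and 0.305 in TTF4, so that in TTF4 the median of genes that mark the iPSC state lay above the 0.140 of the 10 mesoderm and endoderm regulators. Zfp42, a marker of naive pluripotent cells, had 0.803 in TTF4 against 0.0284 in PTC11, 0.209 in PTC12 and 0.100 in TTF1, and Dppa5a had 0.771 in TTF4 against 0.0116 in PTC11, 0.312 in PTC12 and 0.167 in TTF1. Pou5f1, which encodes Oct4, had 0.0786 in TTF4 and was highest in PTC12, at 0.227. These values differed between single lines and were not tests of origin.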

How the data were processed

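H3K4me3, H3K36me3 and H3K27me3 were measured by ChIP-seq and CpG methylation by nanopore sequencing in iPSC lines PTC11, PTC12, TTF1 and TTF4. The authors aligned ChIP-seq reads to mm10 with Bowtie, called peaks with MACS, counted reads in peaks with bedtools (2.17.0 in the submitters' processing notes), subtracted the input and deposited 1 mean RPKM per gene and library. Nanopore reads were aligned with minimap2 (2.17-r941) and methylation was called with Nanopolish, and the authors deposited the fraction of methylated CpGs per gene over windows of 300 bp, sliding by 30 bp, within 1000 bp of the TSS. Neither table gives counts or coverage, so the depth of each library is unknown and counting error was not estimated.

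Lines were grouped by origin from the sample labels. TTF was compared with PTC in limma 3.58.1 (R 4.3.3; lmFit, eBayes with a trend, Benjamini-Hochberg adjustment over all genes with a value in all 4 lines, threshold 0.05), on log2(RPKM + 1) or on the fraction minus the mean of its line. Genes listed at 0 throughout had no spread, and with the trend limma gave genes near that level a small variance. H3K27me3 was not tested. The limma step was run on simulated data to check the code, and the outcome is not used here as a measure of power. CpGs were counted in GRCm38.p6 (mm10), and genes were annotated with GENCODE. Python 3.11.15 with pandas 2.3.3 was used for other steps. All 10 genes were named in every assay. From the other lists, counts and medians were given, and genes were named from the largest and smallest differences, with Pou5f1, Sox7, Mesp2, Gdf3, Lefty1, Zfp42 and Dppa5a among them. The 10 genes and the lists were chosen with earlier results of these data known. Alternatives varied the pseudocount, low-value filters, scaling, missing values and the variance trend, and left out each line in turn.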

Additional observations from a re-analysis of the deposited data

How the results depend on the processing

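None of the 10 genes was called in any alternative that kept all lines. Of 107 values of single genes under alternatives that kept all lines, 101 kept their sign. With quantile normalization, which moved the median H3K36me3 difference of all genes from -0.14 to 0.01, H3K36me3 turned to 0.10 at Eomes, 0.0044 at Sox17 and 0.027 at Gata4, and methylation to -0.0211 at Mesp1. Without centring, methylation turned to 0.0522 at Tbx6 and 0.0115 at Sox17. The cause was not tested.

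Counts over all genes were less stable. The 66 genes called in H3K4me3 became 102 with a pseudocount of 0.1 and 0 with a mean of at least 1 RPKM, quantile normalization, missing values as 0 or no variance trend (14, 318, 128 and 3 at an unadjusted p under 0.05 in limma). The 19 of H3K36me3 became 44 and then 0 under the same settings (4, 502, 24 and 4). The 2 of methylation became 0 without centring, with quantile normalization or with a mean fraction of at least 0.05 (1006, 2438 and 2114), and 1 without the trend.

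With each line left out in turn, which leaves an origin with 1 line assumed to vary like the other, calls ran from 59 to 108 in H3K4me3, 1 without TTF4 to 31 without PTC11 in H3K36me3, and 0 without PTC12 to 1019 without TTF1 in methylation. The median difference in methylation of the 10 genes ran from -0.213 without TTF1 to 0.0379 without TTF4, that in H3K36me3 from -0.87 without TTF4 to 0.43 without TTF1, and that in H3K4me3 from -0.17 without PTC11 to 0.21 without PTC12, so all 3 medians changed sign. Of 96 values of single genes, 35 changed sign. In H3K4me3 Mixl1 ran from -0.17 to 0.96, Eomes from -0.26 to 0.35, Sox17 from -0.11 to 0.32, Gsc from -0.12 to 0.10 and Gata6 from -0.19 to 0.11. In H3K36me3 Mesp1 ran from -0.56 to 1.00, Mixl1 from -1.11 to 0.45, Eomes from -0.82 to 0.66, Gsc from -1.20 to 0.24, Sox17 from -0.56 to 0.32, Foxa2 from -0.84 to 0.11, Gata4 from -0.96 to 0.74 and Gata6 from -0.90 to 0.42. In methylation T ran from -0.324 to 0.0074, Mesp1 from -0.136 to 0.269, Tbx6 from -0.0698 to 0.000104, Gata4 from -0.0632 to 0.173, Eomes from -0.246 to 0.0353, Gsc from -0.217 to 0.0406, Sox17 from -0.208 to 0.0567, Foxa2 from -0.231 to 0.0516 and Gata6 from -0.226 to 0.0235. T in H3K4me3 ran from -0.40 to -0.04 and Mixl1 in methylation from 0.0509 to 0.195. No paired analysis was possible because the line numbers 11 and 12 of PTC are not shared with 1 and 4 of TTF, and the labels do not say which lines came from the same mouse. With 2 lines per origin and no coverage, small differences were not detectable.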
